A study of Drosophila melanogaster with 21 samples.

Results

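The proteasome subunit genes of the fly were followed across 7 groups of Drosophila melanogaster S2 cells, a cultured line of embryonic origin. Genes were taken where their BDGP6 symbol begins with Prosalpha, Prosbeta, Rpn or Rpt followed by a digit. That rule found 48 of the 13989 genes in the files. Of these, 32 are the main subunits and 16 are copies whose symbols add a T or an R, of the kind known from the fly testis. The main subunits comprise 7 outer-ring (Prosalpha) and 7 inner-ring (Prosbeta) genes of the core particle, 6 ATPases (Rpt1 to Rpt6) and 4 other genes of the base (Rpn1, Rpn2, Rpn10 and Rpn13), and 8 genes of the lid.

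The proteasome degrades proteins that carry ubiquitin chains. Its core particle is a barrel of stacked rings whose inner beta rings hold the proteolytic sites, and its cap has a base, with ATPases that unfold substrates, and a lid, with the deubiquitinase Rpn11 that removes the chain. Subunits are needed in fixed proportions, and their mRNAs are known in flies and mammals to rise together through a shared activator, which is cnc in Drosophila. Several subunits have a second gene in flies that is used mainly in the male germ line.

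The series examines how mutations in LS2, a fly splicing factor related to U2AF, affect the splicing it controls. Each line carried an integrated, copper-inducible gene selected with hygromycin, and all lines received 500 µM copper sulfate for 53 h before polyA RNA was sequenced. The d38 group expressed LS2 with W62A, D63A and I64A, the RRM2 group LS2 with F285D and F287D, the Beta5 group LS2 with K192E and R194E, and the SF1 group LS2 with E370K and D371K. In the GSlinker group the residues from H197 to P233 were replaced by GGS motifs, the WT group expressed unaltered LS2, and the GFP group expressed GFP and no introduced LS2. Each group has 3 libraries from what the labels give as 1 line per construct, so that line and construct cannot be told apart. The labels do not say that replicates are separate cultures, so p-values measure the spread between these samples, which may be technical.

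Library totals ran from 17667236 to 38553848 estimated counts. LS2 had group means of 5576 to 7724 TPM in the 6 groups with introduced LS2, against 2.30 ± 1.44 TPM in GFP cells (SD, n = 3). Of 10 markers of blood-cell-like S2 cells, 9 were at 1 TPM or more in every group. The summed level of these 10 markers differed between groups, with 803 to 865 TPM in d38, 856 to 976 in RRM2, 810 to 1125 in Beta5, GSlinker and SF1, 636 to 754 in WT and 1085 to 1136 in GFP libraries, and its part in the results below was not tested. Of the 13 testis and germ line markers that could be matched, from a longer list, 2 or 3 reached 1 TPM. Their sum stayed between 18.8 and 26.7 TPM, while only elav of 5 neuron markers reached 1 TPM. The libraries fall into 2 sets by the effective lengths in the files. The difference between a transcript's length and its effective length had an SD of 68.4 to 88.6 nt over long transcripts in the 12 d38, RRM2, WT and GFP libraries, against 278 to 379 nt in the 9 Beta5, GSlinker and SF1 libraries. The median coefficient of variation of the main subunits' TPM over the 3 libraries of a group was 10.03% in SF1, 5.84% in Beta5 and 4.03% in GSlinker, and 1.77% to 4.50% in the other 4 groups. For these 3 mutants, the library set and the mutation cannot be told apart in any comparison with WT or GFP.

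All 32 main subunits were expressed, and apart from Prosalpha1 they lay within a narrow band. TPM divides the counts by the effective length and so allows genes to be compared. In GFP cells the 31 main subunits other than Prosalpha1 ran from 119 TPM (Rpn3, a scaffold of the lid) to 446 TPM (Prosalpha6, of the outer ring), a 3.76-fold range around a median of 185 TPM for all 32. The same genes, Rpn3 and Prosalpha6, were lowest and highest in each of the 7 groups. In GFP cells 93.3% of all genes lay below the level of Rpn3. The coefficient of variation over the 3 GFP libraries had a median of 2.15% over these 31 genes, and it reached 4.73% for Rpn13.

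By role, the core particle stood above the cap in TPM. In GFP cells the median was 256 TPM for the 6 outer-ring genes other than Prosalpha1 and 243 TPM for the inner ring, compared with 164 TPM for the ATPases, 160.03 TPM for the other base genes and 159 TPM for the lid. In GFP cells the outer-ring genes after Prosalpha6 averaged 363 TPM for Prosalpha2, 286 for Prosalpha5, 226 for Prosalpha3, 189 for Prosalpha4 and 181 for Prosalpha7. Levels within the outer ring thus differed more than 2-fold. Among inner-ring genes in GFP cells, the 3 that hold the proteolytic sites averaged 266 TPM (Prosbeta1, caspase-like), 153 TPM (Prosbeta2, trypsin-like) and 231 TPM (Prosbeta5, chymotrypsin-like). The other inner-ring genes averaged 331 TPM for Prosbeta6, 253 for Prosbeta7, 243 for Prosbeta4 and 203 for Prosbeta3 in GFP cells. The catalytic genes therefore spanned much of the range of their ring.

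Among the ATPases in GFP cells, Rpt6 averaged 367 TPM and Rpt1 253 TPM, while Rpt4, Rpt3, Rpt2 and Rpt5 lay between 155 and 165 TPM. In the rest of the base, the ubiquitin receptors Rpn10 and Rpn13 averaged 193 and 152 TPM in GFP cells, and the scaffolds Rpn2 and Rpn1 168 and 141 TPM. In the lid, GFP cells had 233 TPM of Rpn12, 210 of Rpn6, 170 of Rpn7, 160 of Rpn5, 157 of Rpn8 (the partner of Rpn11), 140 of Rpn9 and 136 of Rpn11.

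The copies were nearly silent with 4 exceptions. Of the 16, 12 did not pass the filter on low counts: they held 24 counts in all over the 21 libraries, and no more than 3 in any library. Prosalpha3T, Prosalpha4T2, Prosbeta4R1, Prosbeta4R2 and Prosbeta5R1 had a count of 0 in every library, which allows up to 3 counts in each. Rpt4R had 8 counts over all libraries, Prosbeta5R2 7 and Prosalpha4T1 5, and Prosalpha6T, Prosbeta2R1, Rpn12R and Rpn13R had 1 each. The 4 copies that were measured in all groups were Prosalpha1R, Rpt6R, Rpt3R and Prosbeta2R2, at 902 ± 22.0, 41.2 ± 2.21, 31.04 ± 1.96 and 3.89 ± 0.824 TPM in GFP cells (SD, n = 3 each). The level listed for Prosalpha1R was thus above that of every main subunit, and is treated with Prosalpha1 below.

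In d38 cells the main subunits were lower than in GFP cells as a group. Levels between groups are given as CPM, counts as a share of the library total after TMM scaling, without division by length. Rpt3 had 147, 140.0 and 141 CPM in the 3 d38 libraries, against 200, 198 and 197 CPM in the GFP libraries. Rpn2, a scaffold of the base, had 382, 388 and 384 CPM in d38 against 516, 495 and 489 CPM in GFP libraries. Rpn10 had 174, 166 and 170 CPM in d38 against 219, 210.2 and 220 CPM in GFP libraries. In all 3 genes every d38 library lay below every GFP library, with gaps wider than the spread within either group. In these bulk samples, fewer cells of a type and less RNA per cell cannot be told apart.

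By edgeR's quasi-likelihood test with Benjamini-Hochberg adjustment over 8750 genes, 26 of the 32 main subunits fell in d38 against GFP and 0 rose. Over all genes tested, 15.2% fell and 15.1% rose in this comparison, 30.3% in either direction. The median log2 fold change was -0.31 over the 32 subunits and 0.00 over all genes, and 30 of the 32 had all 3 d38 libraries below all 3 GFP libraries, as 29% of all genes did. The subunits with the smallest p were Rpt3 (log2 fold change -0.48, SE 0.07, adjusted p 1.52e-05), Rpt6 (-0.45, SE 0.07, adjusted p 2.66e-05), Rpn10 (-0.35, SE 0.05, adjusted p 4.2e-05) and Prosalpha4 (-0.35, SE 0.05, adjusted p 5.74e-05) in edgeR. They were followed by Rpn2, Rpn1, Rpn12, Rpt1, Rpn3 and Rpn13, at -0.33 to -0.42 with edgeR adjusted p of at most 0.000351.

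The cap carried more of these calls than the core, as counts. All 6 ATPases, all 4 other base genes and 7 of 8 lid genes fell in d38 against GFP, compared with 5 of 7 outer-ring and 4 of 7 inner-ring genes. The 6 main subunits that did not pass were Prosalpha1, Prosalpha2, Prosbeta2, Prosbeta5, Prosbeta7 and Rpn5. Their log2 fold changes were 0.44 for Prosalpha1, which is uncertain for the reason given below, and -0.12 to -0.25 for the other 5. Whether the parts of the particle differed in their change was not tested.

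**Figure D1:**
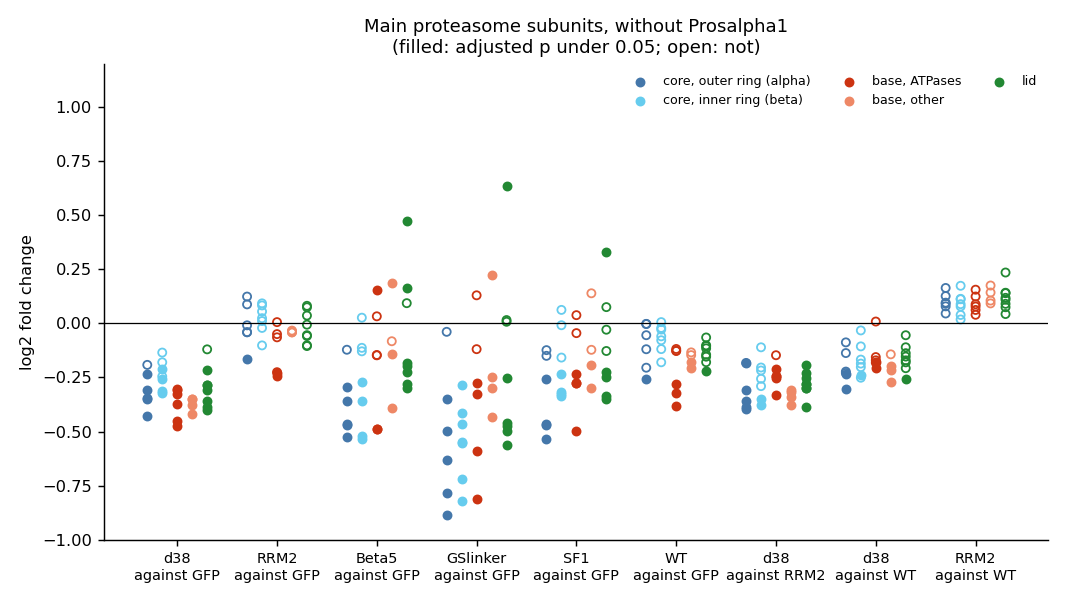
Log2 fold change (vertical axis) of the 31 main subunits other than Prosalpha1 in 9 comparisons (horizontal axis), with 1 point per gene, coloured by part of the particle and filled where the edgeR adjusted p is under 0.05. The 31 points of d38 against GFP and of d38 against RRM2 all lie below 0, and those of RRM2 against WT all lie above 0 without passing the test.

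Summed over the main subunits and Prosalpha1R, the level was 6427, 6190 and 6139 CPM in d38 libraries, against 7954, 7558 and 7733 CPM in GFP libraries, a mean 19.3% lower. In TPM, which are not rescaled between libraries, the same sum was 6760, 6699 and 6703 in d38 against 7582, 7559 and 7500 in GFP libraries, 10.9% lower. On log2(TPM + 1), a scale that understates the change of low genes, the median of all genes moved by 0.12 in this comparison and limma called 16 subunits lower and 0 higher, with a median of -0.18.

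RRM2 cells did not show this pattern. In RRM2 libraries Rpn2 had 486, 489 and 487 CPM and Rpn10 had 215, 206 and 209 CPM, close to the GFP values above. In edgeR's test 3 main subunits fell and 1 rose in RRM2 against GFP, where 12.7% of all genes fell and 12.3% rose (24.9% in either direction). The 3 that fell were Rpt6 (log2 fold change -0.24, SE 0.07, adjusted p 0.0114), Rpt3 (-0.23, SE 0.07, adjusted p 0.0154) and Prosalpha4 (-0.16, SE 0.05, adjusted p 0.0338). The 1 that rose was Prosalpha1, which is uncertain for the reason given below. The median over the 32 was -0.04. Without GFP replicate 1 the 4 calls became 2, and without RRM2 replicate 3 they became 1.

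Set directly against RRM2, a comparison added after the data were seen, d38 cells were lower in every main subunit. All 32 had their 3 d38 libraries below the 3 RRM2 libraries, as 21.7% of all genes did. Replicate 1 was the highest of its group for 28 of the 32 in d38 and 29 in RRM2, so the 32 are not independent observations. In edgeR's test 24 of 32 fell and 0 rose, where 7.04% of all genes fell and 6.58% rose (13.6% in either direction), and the median log2 fold change was -0.29 against 0.00 over all genes. All 8 lid genes and all 4 non-ATPase base genes fell, with 5 of 6 ATPases, 5 of 7 outer-ring and 2 of 7 inner-ring genes. The smallest p belonged to Rpn10 (-0.31, SE 0.05, adjusted p 0.000465), Rpt1 (-0.33, SE 0.06, adjusted p 0.000564) and Rpn2 (-0.34, SE 0.06, adjusted p 0.000614) in edgeR. Rpn8 had 160, 156 and 155 CPM in d38 against 207, 203 and 205 CPM in RRM2 libraries (log2 fold change -0.39, SE 0.10, edgeR adjusted p 0.00952). Leaving out 1 library at a time left 16 to 20 subunits lower, with 16 without RRM2 replicate 1, and limma on log2(TPM + 1) called 15. The d38 and RRM2 libraries belong to the same library set.

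By the median log2 fold change of the main subunits against GFP in edgeR, WT cells lay between these groups. In TPM their summed level was that of d38 cells, as given below. In edgeR's test 7 main subunits fell and 0 rose in WT against GFP, where 17.1% of all genes fell and 17.1% rose (34.2% in either direction). The 7 were Rpt3, Prosalpha4, Rpt4, Rpt6, Rpn1, Rpn12 and Rpn2, of which 5 belong to the base. Rpt3 had 152, 155 and 169 CPM in WT libraries (log2 fold change -0.32, SE 0.07, adjusted p 0.000862 against GFP in edgeR), all below the 3 GFP libraries given above. Rpt4 had 146, 156 and 167 CPM in WT against 211, 202 and 198 CPM in GFP libraries (-0.38, SE 0.09, adjusted p 0.00157 in edgeR). The median over the 32 was -0.12, and 13 had no overlap between the groups with WT below, as 25.1% of all genes did.

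The count of 7 depended on single libraries and on the test. WT replicate 3 held the highest CPM of its group in 30 of the 32 main subunits. Without it 17 subunits fell, and without GFP replicate 1, which held the highest value of its group in 24 subunits, 4 fell. DESeq2 called 14 subunits, limma on log2(TPM + 1) and log2(TPM + 0.1) 15 and 14, limma on TMM-scaled log2(TPM + 1) 12, and edgeR on the 12 libraries of d38, RRM2, WT and GFP 17.

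Against WT, d38 cells had 9 main subunits lower and 0 higher in edgeR's test, where 8.65% of all genes fell and 7.67% rose (16.3% in either direction). The 9 were Rpn10, Rpt1, Rpn13, Prosalpha7, Prosalpha6, Rpn11, Rpn2, Prosbeta4 and Rpt5, with log2 fold changes of -0.18 to -0.30 and edgeR adjusted p of 0.00852 (Rpn10) to 0.0486 (Rpt5). Rpn10 had 190.3, 189 and 212 CPM in WT libraries, all above the d38 values given above. Of the 32, 26 had all d38 libraries below all WT libraries, as 20.9% of all genes did, and the median was -0.18. The count moved with the libraries and the fit. Without WT replicate 3 there were 0 calls, with a median of -0.13. Without d38 replicates 1, 2 and 3 in turn there were 5, 2 and 1, and without WT replicate 2 there were 6. In TPM the summed main subunits with Prosalpha1R were nearly level, with 6721 ± 34.5 in d38 and 6721 ± 260 in WT cells (SD, n = 3 each). On log2(TPM + 1), where the median of all genes moved by 0.14, limma called 0 subunits and their median was 0.00, so that the subunits lay below the median of all genes by about that shift. Limma on TMM-scaled log2(TPM + 1), added after the data were seen, called 10 lower. In edgeR, fitting only the 2 groups gave 16 calls and fitting the 12 libraries of d38, RRM2, WT and GFP gave 25.

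RRM2 cells had 0 main subunits past the threshold against WT in edgeR's test, where 4.08% of all genes rose and 4.03% fell (8.11% in either direction). All 32 log2 fold changes were above 0, from 0.02 to 0.70, with a median of 0.10 against -0.01 over all genes, and 8 had an unadjusted p under 0.05. Of the 32, 9 had all 3 RRM2 libraries above all 3 WT libraries, as 14% of all genes did. DESeq2 called 2 subunits higher, limma on log2(TPM + 1) called 12, and edgeR on the 12 libraries of the 4 groups called 9. The RRM2 and d38 comparisons with GFP share the GFP libraries, and those with WT share the WT libraries.

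**Figure D2:**
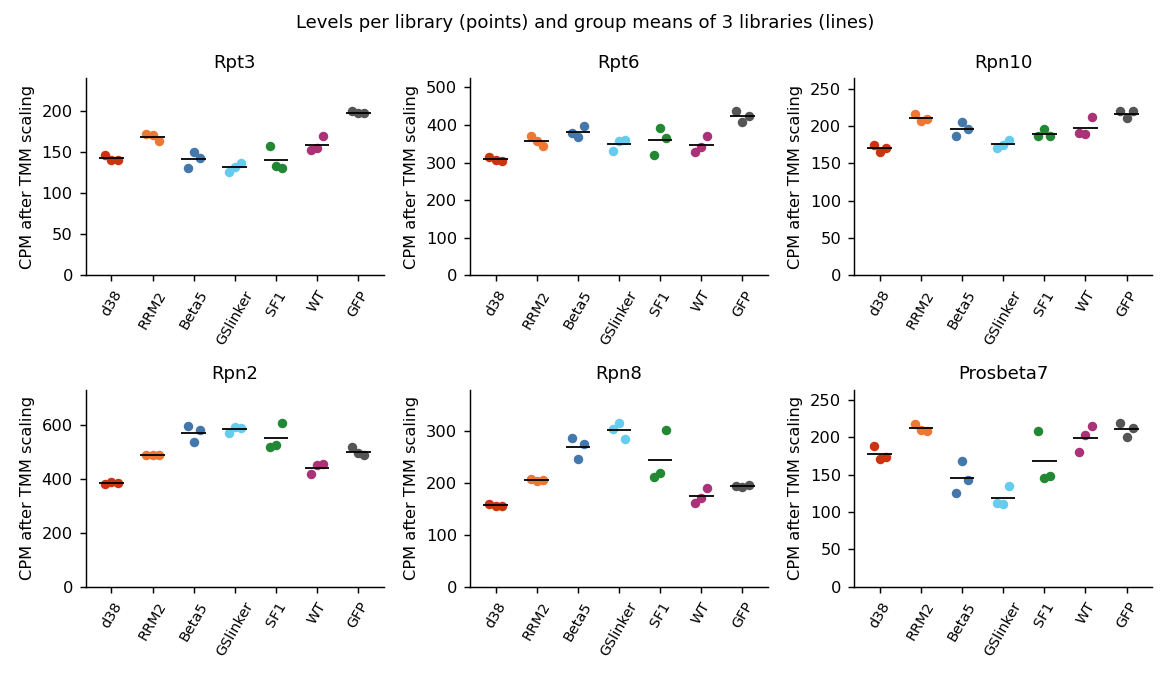
Level of 6 main subunits in CPM after TMM scaling (vertical axis) in the 3 libraries of each group (points) with group means (lines), groups along the horizontal axis. The d38 libraries lie below the RRM2 and GFP libraries in all 6 panels, and the Rpn8 and Rpn2 panels place the Beta5, GSlinker and SF1 libraries above the GFP libraries while the Prosbeta7 panel places most of them below.

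In Beta5, GSlinker and SF1 cells, subunits changed in both directions. In Beta5 against GFP, 18 main subunits fell and 5 rose in edgeR's test, where 29.3% of all genes fell and 28% rose (57.3% in either direction). In GSlinker against GFP, 24 fell and 3 rose, where 32.5% of all genes fell and 31.1% rose (63.7%). In SF1 against GFP, 18 fell and 2 rose, where 30.1% of all genes fell and 28.4% rose (58.5%). Prosalpha1, which is uncertain for the reason given below, was among those that rose in each. Without it 4 rose in Beta5, 2 in GSlinker and 1, Rpn8, in SF1. The medians over the 32 subunits were -0.19, -0.42 and -0.23 in these 3 comparisons, against -0.01, -0.01 and 0.00 over all genes.

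Among the changes in GSlinker cells were large falls of core subunits. Prosalpha2 had 132, 130 and 148 CPM in GSlinker libraries, against 257, 249.8 and 249 CPM in GFP libraries (log2 fold change -0.88, SE 0.10, adjusted p 3.56e-07 in edgeR). Prosbeta7 had 112, 111 and 135 CPM in GSlinker against 220, 201 and 212 CPM in GFP libraries (-0.82, SE 0.12, edgeR adjusted p 7.31e-06). No library of the 2 groups overlapped in either gene. Prosalpha5 fell in all 3 groups, by 0.47 in Beta5, 0.78 in GSlinker and 0.54 in SF1 on the log2 scale. Among the ATPases Rpt3 fell by 0.49, 0.59 and 0.50 in Beta5, GSlinker and SF1, and Rpt4 fell by 0.49, 0.81 and 0.27 in the same 3 groups. All 7 inner-ring genes fell in GSlinker, against 4 of 7 in both Beta5 and SF1. Counted over the 6 comparisons with GFP, which share the GFP libraries, Rpt3 and Prosalpha4 fell in all 6 and Rpt4, Rpt6 and Rpn12 in 5. The share of all genes that fell in 5 or 6 of them was not computed, so whether such repeats are unusual cannot be told.

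A few subunits moved the other way. Rpn8 had 287, 246 and 275 CPM in Beta5, 303, 316 and 284 CPM in GSlinker and 211, 219 and 302 CPM in SF1 libraries, against 194, 192 and 196 CPM in GFP libraries. All 9 were above the GFP libraries, with log2 fold changes of 0.47 (SE 0.10), 0.64 (SE 0.10) and 0.33 (SE 0.10) and edgeR adjusted p of 0.000373, 1.42e-05 and 0.0063. The third SF1 library stood apart from the other 2. Rpn2 rose in Beta5 (0.19, SE 0.06) and GSlinker (0.22, SE 0.06), and Rpt1 and Rpn5 rose in Beta5 (0.16 each), all with edgeR adjusted p between 0.00342 and 0.0291.

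Against WT the same library set showed both directions again. In Beta5, 7 main subunits rose and 11 fell, where 24.9% of all genes rose and 29.1% fell (54% in either direction). In GSlinker, 4 rose and 20 fell, where 27.4% rose and 30.8% fell (58.1%). In SF1, 5 rose and 7 fell, where 23.6% rose and 25.6% fell (49.2%). Without Prosalpha1, which is uncertain as said, 6 rose in Beta5, 3 in GSlinker and 4 in SF1. Rpn8 rose in all 3 against WT, by 0.63, 0.79 and 0.48 on the log2 scale with SE 0.10 each, and Rpn2 by 0.37, 0.40 and 0.32 with SE 0.06 each. Without SF1 replicate 1 the 12 calls of SF1 against WT became 21, and without SF1 replicate 2 or 3 they became 6.

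In these 3 groups the log2 fold change of a subunit went with the length of its transcripts. Over the 31 subunits other than Prosalpha1, Spearman's rho between effective length and log2 fold change against GFP was 0.54, 0.64 and 0.52 in Beta5, GSlinker and SF1. The d38, RRM2 and WT values were -0.17, -0.19 and -0.33. Over all 8750 genes it was 0.30, 0.28 and 0.29 in Beta5, GSlinker and SF1 against GFP, and 0.10, 0.03 and -0.10 in d38, RRM2 and WT. Against WT, rho over the 31 subunits was 0.69, 0.71 and 0.67 in Beta5, GSlinker and SF1, and 0.27 and 0.21 in d38 and RRM2. Over all genes it was 0.40, 0.39 and 0.45 in Beta5, GSlinker and SF1 against WT, and 0.28 and 0.23 in d38 and RRM2. Positive values against WT were thus not confined to the 3 groups. These are descriptions across genes that share the same libraries, and genes are not independent replicates. With effective-length offsets edgeR's counts of calls stayed within 1.5 times those above in all 12 comparisons. Such counts do not measure the relation with length, and rho was not computed under the offsets. The part of length in the fold changes was not tested.

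The balance between parts of the particle could be read within each library, where scaling between libraries has no part. TPM still rest on each library's effective lengths, which differed between the library sets. The lid mean also holds Rpn8, which rose in Beta5, GSlinker and SF1 against GFP. The ratio of mean TPM per subunit between base and lid was 1.07, 1.08 and 1.07 in d38, 1.07, 1.09 and 1.07 in RRM2, 1.09, 1.09 and 1.10 in WT, and 1.16 in all 3 GFP libraries. In Beta5, GSlinker and SF1 libraries it ran from 1.03 to 1.11. All 18 libraries with introduced LS2 lay below the lowest GFP library, with a highest value of 1.11. The ATPases alone showed this in 18 of 18 libraries, with at most 1.23 against at least 1.26 in GFP libraries, and so did the other 4 base genes, with at most 0.967 against at least 0.981. Both ratios share the lid as divisor and are parts of base over lid, so they are not separate observations. With 1 GFP line, GFP and its line cannot be told apart, and the ratio was chosen after the data were seen and was not tested.

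The ratio between core and lid behaved otherwise. Per subunit, with Prosalpha1R counted in the sum, it was 1.87 ± 0.03 in d38, 1.87 ± 0.01 in RRM2, 1.91 ± 0.03 in WT and 1.86 ± 0.01 in GFP cells (SD, n = 3 each). Beta5 cells had a ratio of 1.58 ± 0.09, GSlinker cells of 1.49 ± 0.08 and SF1 cells of 1.68 ± 0.18 (SD, n = 3 each). Except for SF1 replicate 1, at 1.88, every library of these 3 groups was below every library of the other 4 groups. These 3 groups form the library set with other effective lengths, so the set and the mutation cannot be told apart here. Like base over lid, this ratio was chosen after the data were seen and was not tested. The part of transcript length in it was not tested either.

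**Figure D3:**
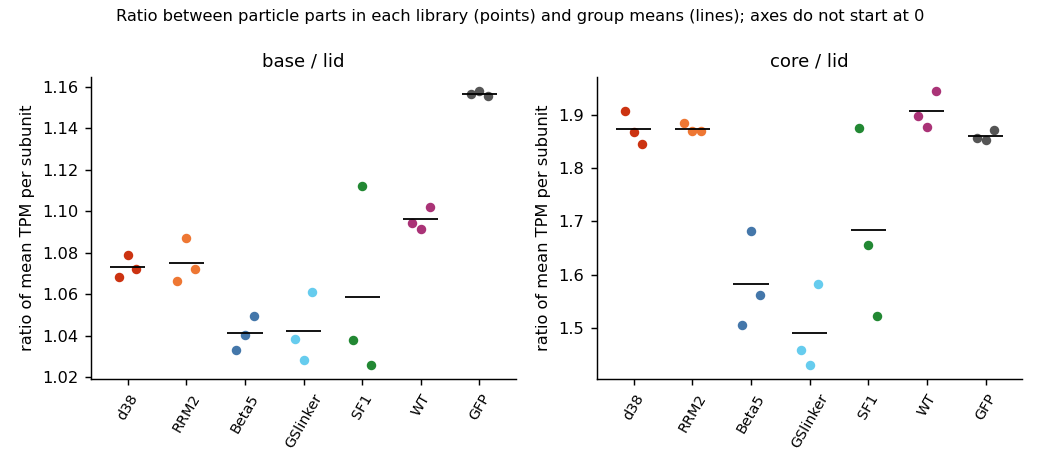
Ratio of mean TPM per subunit between base and lid (left) and between core and lid (right) in each library (points) with group means (lines), groups along the horizontal axis and vertical axes that do not start at 0. The GFP libraries lie at 1.16 for base over lid with all other libraries at 1.11 or below, and the Beta5, GSlinker and SF1 libraries lie low for core over lid.

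Prosalpha1 and Prosalpha1R are known as near-identical genes, and the deposited estimates divide their reads between them. They lie on the same strand of chromosome 2R, at 7827303 to 7828678 and 7830413 to 7831771 in BDGP6, 1734 nt apart. Both have a coding sequence of 732 nt, and each of their 2 annotated transcripts has a counterpart with introns of the same lengths in the other gene. Prosalpha1 was listed at 338 TPM in Beta5, 362 TPM in GSlinker and 235 TPM in SF1 cells, at 54.3 TPM in d38, 89.7 TPM in RRM2 and 50.9 TPM in WT cells, and at 36.7 TPM in GFP cells. Prosalpha1R was listed at 612 TPM in Beta5, 526 TPM in GSlinker and 693 TPM in SF1 cells, at 787 TPM in d38, 849 TPM in RRM2 and 766 TPM in WT cells, and at 902 TPM in GFP cells. Prosalpha1 therefore held 35.6% ± 5.81, 41.0% ± 11.1 and 25.0% ± 10.1 of the pair in Beta5, GSlinker and SF1, and 3.91% ± 0.53 in GFP cells (SD, n = 3 each).

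Taken alone, Prosalpha1 rose by 3.13, 3.18 and 2.53 on the log2 scale in Beta5, GSlinker and SF1 against GFP, the furthest of any subunit. Summed with Prosalpha1R, the pair had log2 fold changes of -0.04 (SE 0.07, edgeR adjusted p 0.634), -0.19 (SE 0.07, adjusted p 0.0219) and -0.15 (SE 0.07, adjusted p 0.0598). The rise of Prosalpha1 in these groups thus turned its direction in the sum, and the same was true of RRM2, where 1.24 for Prosalpha1 became -0.03 for the pair (edgeR adjusted p 0.763). In d38 against GFP the pair fell by 0.27 (SE 0.07, edgeR adjusted p 0.00432), with 592, 554 and 551 CPM in d38 against 709, 662 and 678 CPM in GFP libraries. Which of the 2 genes gave the reads cannot be told from these estimates, so the level and the change of each gene taken alone are uncertain.

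**Figure D4:**
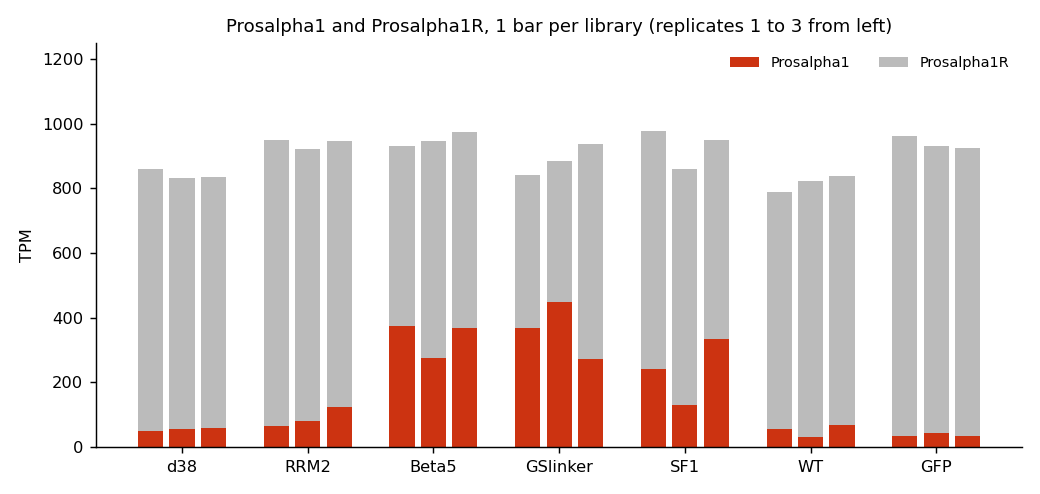
TPM of Prosalpha1 (red) stacked with that of its near-identical neighbour Prosalpha1R (grey), vertical axis, with 1 bar per library and groups along the horizontal axis. The Prosalpha1 part is large in Beta5, GSlinker and SF1 libraries, while the whole bar stays between 789 and 975 TPM in all 21 libraries.

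The other measured copies followed the main subunits in d38 cells. Rpt3R had 25.2, 25.7 and 23.3 TPM in d38 against 28.8, 31.9 and 32.4 TPM in GFP libraries, and fell with a log2 fold change of -0.46 (SE 0.07, edgeR adjusted p 6.18e-05). Rpt6R fell by 0.40 (SE 0.07, edgeR adjusted p 0.000357) and Prosbeta2R2 by 0.73 (SE 0.19, edgeR adjusted p 0.00593), the last at 2.57 ± 0.288 TPM in d38 and 3.89 ± 0.824 TPM in GFP cells (SD, n = 3 each). These 3 copies also fell in d38 against RRM2 and against WT in edgeR's test, with log2 fold changes of -0.52 to -0.83 and of -0.24 to -0.56. In Beta5 cells Rpt6R rose to 57.7 ± 1.68 TPM, against 41.2 ± 2.21 TPM in GFP cells (SD, n = 3 each), with a log2 fold change of 0.42 (SE 0.07, edgeR adjusted p 8.57e-05). In the same comparison Prosbeta2R2 fell by 0.82 (SE 0.19, edgeR adjusted p 0.00139) and Prosalpha1R by 0.62 (SE 0.13, edgeR adjusted p 0.000305), and Rpt3R had a log2 fold change of -0.08 (edgeR adjusted p 0.365). In GSlinker against GFP Prosalpha1R, Prosbeta2R2 and Rpt3R fell, by 0.89, 0.64 and 0.29, and in SF1 against GFP Prosalpha1R alone passed, lower by a log2 fold change of -0.52, all in edgeR's test. The falls of Prosalpha1R are uncertain, since its reads could not be told from those of Prosalpha1. The sum of the pair is given above. In RRM2 against WT, Rpt6R rose by 0.28 (SE 0.07, edgeR adjusted p 0.0198).

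The isoforms of the subunit genes were examined through isoform shares, an isoform's part of its gene's summed TPM. Several of these isoforms differ in their annotated start or 3′ end, so a changed share need not be a change of splicing. Proteasome genes are compact: no main subunit has more than 4 introns, 4 have none, and 17 have 1 annotated transcript. Shares could be tested in 14 main subunits with limma on their log ratios and a Simes p per gene, adjusted over 4464 genes. In WT against GFP 1 of them passed, where 17.4% of all genes did. In d38 against GFP 3 passed (13.6% of all genes) and in RRM2 against GFP 1 (14.6%). Beta5, GSlinker and SF1 had 4, 5 and 8 against GFP, where 34.5%, 43.9% and 38.4% of all genes passed. Against WT, d38 had 2 (8.27% of all genes) and RRM2 0 (2.06%), while Beta5, GSlinker and SF1 had 4, 5 and 3, where 29.1%, 35.8% and 25.2% of all genes passed. In d38 against RRM2 2 passed, where 4.37% of all genes did. For RRM2 against WT, Prosalpha5 alone had an unadjusted p under 0.05, edgeR's diffSpliceDGE F test called 1 gene and its Simes test 0.

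Prosalpha5 was the gene that differed between WT and both d38 and GFP. It lies on chromosome 2R at 17412767 to 17413769 on the plus strand. Its RA transcript removes an intron of 61 nt in the 5′ leader, at 17412844 to 17412904, ahead of the coding sequence that starts at 17412911. The RB transcript starts at 17412839, downstream of the RA start at 17412767, and keeps those bases as exon, with the same coding sequence of 732 nt. Use of another start and removal of the intron cannot be told apart by the share of RB. RB made up 0.920%, 1.68% and 1.68% of Prosalpha5 in d38 libraries, 6.54%, 9.75% and 10.6% in WT libraries, and 2.57%, 3.56% and 3.02% in GFP libraries. The WT libraries were above all others of these 3 groups and the d38 libraries below them.

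The limma adjusted p for Prosalpha5 was 2.68e-05 in d38 against WT, 0.000654 in WT against GFP and 0.0383 in d38 against GFP. RRM2 libraries had 5.75%, 5.68% and 4.02% of RB, above every d38 library (limma adjusted p 0.00256 for d38 against RRM2). Under edgeR's diffSpliceDGE Simes test the adjusted p of Prosalpha5 was 0.00238 in d38 against WT, 0.159 in WT against GFP, 0.590 in d38 against GFP and 0.191 in d38 against RRM2, while under its F test all 4 were at most 0.00782. The share averaged 4.78% ± 1.16 in Beta5, 7.09% ± 0.51 in GSlinker and 8.95% ± 2.16 in SF1 cells (SD, n = 3 each), with limma adjusted p of 0.0938, 0.00174 and 0.000302 against GFP. The diffSpliceDGE Simes test gave 0.222 in GSlinker and 0.0878 in SF1 against GFP. A share of 1.43% in d38 rests on a mean of 57.3 estimated counts per library and one of 8.96% in WT on 454.

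Rpn13, the ubiquitin receptor, was the other gene past the threshold in d38 against WT. It lies on the minus strand of chromosome 2R at 13958545 to 13960404. An intron of 105 nt at 13959100 to 13959204, inside the coding sequence, is removed in its RA, RB and RF transcripts and kept in RD, RE and RG, where it adds 35 codons. Transcripts with the intron kept held 29.7%, 30.0% and 33.2% of Rpn13 in d38, 21.5%, 19.9% and 20.4% in RRM2, 20.861%, 20.999% and 18.715% in WT, and 25.6%, 27.5% and 24.8% in GFP libraries. Every d38 library was above every library of the other 3 groups. The limma adjusted p of the gene was 0.00381 in d38 against WT, 0.00735 in d38 against RRM2 and 0.287 in d38 against GFP. Every p given for Rpn13 comes from its transcripts taken singly, and the summed share with the intron kept was not itself tested. Neither of the first 2 calls was made by edgeR's diffSpliceDGE, whose F test gave adjusted p of 0.135 and 0.330 and whose Simes test gave 1 for both. GSlinker cells had 46.5% ± 1.46 with the intron kept, against 20.2% ± 1.28 in WT and 26.0% ± 1.40 in GFP cells (SD, n = 3 each), with limma adjusted p of 5.74e-07 and 3.2e-06, and Beta5 cells had 31.6% ± 1.74. The diffSpliceDGE Simes test gave adjusted p of 0.00382 for Rpn13 in GSlinker against WT and 0.0516 in GSlinker against GFP.

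The 3 calls of d38 against GFP were less firm. They were Rpn2, Prosalpha5 and Rpn9, with limma adjusted p of 0.0107, 0.0383 and 0.0463, and leaving out any 1 of the 6 libraries left 0 or 1 of them, 0 without d38 replicate 3. All 3 passed diffSpliceDGE's F test and none its Simes test, where the lowest adjusted p was 0.343 for Rpn2. Rpn2-RC held 36.9%, 37.8% and 40.7% of Rpn2 in d38 against 26.2%, 25.5% and 26.2% in GFP libraries, with no overlap. Rpn9 was also the 1 call of RRM2 against GFP, with 9.48%, 10.9% and 8.67% of Rpn9-RB in RRM2 against 14.3%, 13.2% and 15.3% in GFP libraries (limma adjusted p 0.0382), and this call was lost without GFP replicate 1 or 3 or RRM2 replicate 1 or 3.

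Prosbeta4 and Prosalpha6 changed with the library set. Prosbeta4-RA ends 41 nt short of Prosbeta4-RB, and it held 44.7% ± 13.1 of Prosbeta4 in d38, 45.4% ± 5.24 in RRM2, 33.0% ± 6.94 in WT and 33.3% ± 10.8 in GFP cells (SD, n = 3 each). In all Beta5, GSlinker and SF1 libraries its share was 3.22% or less. Prosalpha6-RA ends 43 nt short of Prosalpha6-RB, and its share was 34.6% ± 10.7 in Beta5, 40.1% ± 7.10 in GSlinker and 14.6% ± 18.6 in SF1 cells (SD, n = 3 each), but nearly 0 in the other 4 groups. These 2 genes account for 2 of the calls in each of the 3 mutants against GFP and against WT, and there the library set and the mutation cannot be told apart.

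**Figure D5:**
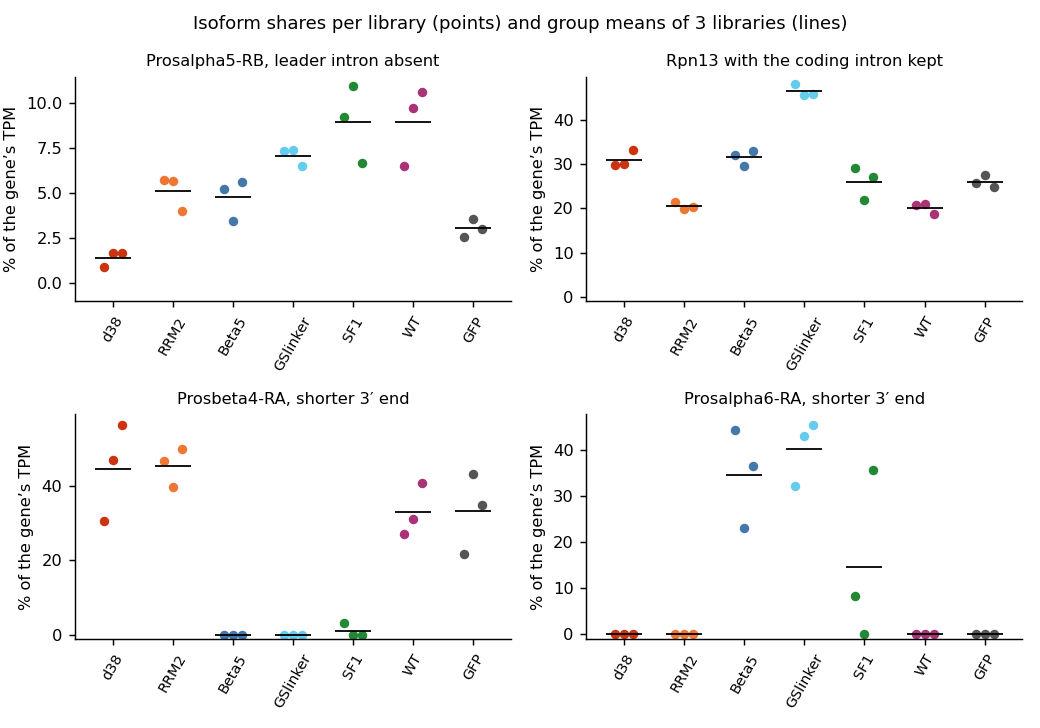
Share of 4 isoforms in percent of the gene's summed TPM (vertical axes) in each library (points) with group means (lines), groups along the horizontal axes. Prosalpha5-RB is lowest in d38 and high in WT and SF1 libraries, Rpn13 with the intron kept is highest in GSlinker libraries, and both shorter 3′ ends separate Beta5, GSlinker and SF1 from the other groups, apart from 1 SF1 library of Prosalpha6 near 0.

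The other genes of the pathway are given as counts from 3 lists. The first list held 13 names, of which Ecm29 had no match under that symbol but was tested as CG8858. Of the 12 assembly factors, activators and associated proteins tested, 1 fell and 0 rose in d38 against GFP in edgeR's test. Over all genes 15.2% fell and 15.1% rose there. The gene that fell was the deubiquitinase Usp14 (log2 fold change -0.19, SE 0.06, edgeR adjusted p 0.0210). The activator cnc had a log2 fold change of -0.09 (SE 0.08, edgeR adjusted p 0.453) there, and it fell by 0.31 in d38 against RRM2 (SE 0.08, edgeR adjusted p 0.0112), with Usp14 and the proteasome inhibitor PI31, where 7.04% of all genes fell. The medians of this list were -0.09 in d38 against GFP and -0.19 in d38 against RRM2.

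Of 18 genes for ubiquitin, its activation and its shuttle factors, 4 fell and 1 rose in d38 against GFP, near the 30.3% of all genes that passed in either direction. Those with the smallest p were RpS27A, which encodes ubiquitin fused to a ribosomal protein (-0.38, SE 0.07, adjusted p 0.000477), the unfoldase TER94 (-0.35, SE 0.08, adjusted p 0.00178) and its cofactor Npl4 (-0.25, SE 0.07, adjusted p 0.00748) in edgeR. The same 3 genes were the only members of the list past the threshold in d38 against RRM2, all lower. Of 21 genes of the cullin-RING ligase core, 4 rose and 0 fell in d38 against GFP, where 15.1% of all genes rose, among them Cul5, CSN3 and alien at 0.14 to 0.21, and 0 passed in d38 against RRM2.

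The share of all genes that passed in either direction against GFP was 24.9% in RRM2, 57.3% in Beta5, 63.7% in GSlinker, 58.5% in SF1 and 34.2% in WT, and the counts of the 3 lists are set beside it. In these comparisons the first list had 3 genes higher and 1 lower in RRM2, 5 and 2 in Beta5, 6 and 3 in GSlinker, 5 and 2 in SF1, and 0 and 1 in WT. Sem1, a small lid subunit that the symbol rule does not reach, rose by 1.08 (SE 0.15) in Beta5 and 0.98 (SE 0.15) in GSlinker on the log2 scale, and Pomp, the chaperone of core assembly, fell by 0.60 (SE 0.10) and 0.79 (SE 0.10), all with edgeR adjusted p of at most 4.13e-05. The ubiquitin list had 3 higher and 0 lower in RRM2, 4 and 4 in Beta5, 7 and 10 in GSlinker, 5 and 6 in SF1, and 3 and 3 in WT. The cullin-RING list had 4 higher and 0 lower in RRM2, 9 and 4 in Beta5, 9 and 3 in GSlinker, 8 and 3 in SF1, and 6 and 0 in WT.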

How the data were processed

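The deposited tables, 1 per library, give for each of 30594 transcripts a length, an effective length, estimated counts and TPM, per the file headers. Per the submitters' processing notes, kallisto and STAR and the builds dm6 and BDGP6 were used; their roles and versions are not given in the sources used here. The deposited estimated counts (expected counts) are unscaled between libraries, and the authors' TPM divide them by effective length. Transcripts were matched to BDGP6 genes of Ensembl release 115 (98.8%) and summed per gene.

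Counts rounded to whole numbers were tested with edgeR 4.0.16 (quasi-likelihood, TMM, filterByExpr with a minimum count of 10, all 21 libraries in 1 fit, 14 residual degrees of freedom; 8750 genes). An SE is the size of a log2 fold change divided by the square root of F. Isoform shares were tested with limma 3.58.1 on log2((share + 0.01) / (1 - share + 0.01)), with 14636 transcripts. The threshold was an adjusted p of 0.05. Both tests were checked on simulated data. The plan was to name, in each comparison, up to 10 main subunits past the threshold with the smallest p. It also covered every subunit and copy by its level and 3 genes per pathway list. Not all of these are given for each comparison. The choice among them, and the naming of other genes, came after their values were seen. Members and lists were chosen with earlier results of these data known. Limits from counts cover counting error only. Alternatives are given in the closing section.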

Additional observations from a re-analysis of the deposited data

How the results depend on the processing

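Counts of main subunits past the threshold moved by more than 1.5 times under these settings, and the cause was not tested. For WT against GFP, 7 calls became 14 with DESeq2, 15 and 14 with limma on log2(TPM + 1) and log2(TPM + 0.1), 12 with TMM-scaled TPM and 17 with only the 12 libraries of d38, RRM2, WT and GFP. The TPM pair gave 16 and 16 for d38 against GFP (26), 0 and 0 for d38 against WT (9), 12 and 13 for RRM2 against WT (0), and 15 and 15 for d38 against RRM2 (24). DESeq2 gave 2 for RRM2 against WT, and no filter gave 2 for RRM2 against GFP (4). Fitting only the 2 groups gave 11 for SF1 against GFP (20), 16 for d38 against WT, 2 for RRM2 against WT and 3 for SF1 against WT (12), and the 12 libraries gave 25 for d38 against WT and 9 for RRM2 against WT. Direction was compared only for the called subunits with the smallest p. It stayed, except for Rpt3 in SF1 against WT, at 0.0045 on either TPM scale (limma adjusted p 0.957 and 0.958). From edgeR to log2(TPM + 1), the median over the main subunits went from -0.09 to 0.05 in Beta5 against WT. It went from -0.06 to 0.14 in SF1 against WT and from -0.04 to 0.01 in RRM2 against GFP. The medians of all genes there were 0.09, 0.18 and 0.05 on log2(TPM + 1). Elsewhere the subunit median kept its sign on that scale.

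Summing Prosalpha1 with Prosalpha1R turned the sign, against GFP, to -0.0400 in Beta5, -0.19 in GSlinker, -0.15 in SF1, -0.27 in d38, -0.0339 in RRM2 and -0.14 in WT, and against WT to -0.0422 in GSlinker and -0.00887 in SF1.

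Isoform counts under diffSpliceDGE's F and Simes tests were 3 and 0 in WT against GFP, 2 and 0 in RRM2 against GFP, 8 and 2 in GSlinker against GFP, 1 and 1 in d38 against WT, and 1 and 0 in d38 against RRM2. Simes alone moved d38 (0), Beta5 (2) and SF1 (4) against GFP, and F alone RRM2 against WT (1).

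Leaving out 1 library gave 4 to 17 expression calls for WT against GFP, 21 to 25 for d38, 1 to 4 for RRM2, 16 to 23 for Beta5, 26 to 28 for GSlinker and 16 to 26 for SF1 against GFP, 0 to 8 for d38, 0 to 0 for RRM2, 12 to 18 for Beta5, 21 to 24 for GSlinker and 6 to 21 for SF1 against WT, and 16 to 20 for d38 against RRM2. Isoform calls were 1 to 2 for WT, 0 to 1 for both d38 and RRM2, and 4 to 5, 5 to 6 and 5 to 7 for Beta5, GSlinker and SF1 against GFP, 2 to 2 and 0 to 0 for d38 and RRM2 and 3 to 5, 4 to 5 and 1 to 4 for Beta5, GSlinker and SF1 against WT, and 1 to 2 for d38 against RRM2.

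No pairing by replicate number was seen over all genes, where correlations of same-numbered deviations ran from -0.211 to 0.133. Over the 32 main subunits, replicate 1 was most often highest in d38 (28), RRM2 (29), GFP (24) and SF1 (22). Replicate 2 was so in Beta5 (21), and replicate 3 in GSlinker (26) and WT (30). The subunits thus moved largely together by library, and counts of subunits are not counts of independent observations. A replicate block left 7 calls for WT and 25 for d38 against GFP, 7 for d38 and 0 for RRM2 against WT and 23 for d38 against RRM2, and isoform calls of 1 for d38 and 0 for RRM2 against GFP. At this depth, 12 copies could not be compared between groups.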
